A study of Mus musculus with 9 samples.

Results

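The transcripts of interferon-induced GTPases of the GBP and IRG families were followed in LPS-treated mouse microglial cells. The genes were chosen by name: the guanylate-binding protein genes Gbp2, Gbp3, Gbp5 and Gbp7, and the immunity-related GTPase genes Irgm1, Irgm2, Igtp (also called Irgm3) and Iigp1. Of these 8 genes, 7 had a row among the 6462 genes of the deposited expression table. Iigp1 was not analysed here. The cells were BV2, an immortalized mouse microglial line, which is 1 cell line and not primary microglia. They were untreated (labelled 0 h), or had received bacterial lipopolysaccharide (LPS, a ligand of the receptor TLR4) at 200 ng/ml for 1 h or for 12 h. Each group had 3 libraries, making 9. The labels describe no untreated cells kept for 1 h or 12 h, so LPS and elapsed time cannot be told apart. Separate cultures are not stated for the 3 libraries in a group. P-values therefore rest on the spread among libraries, and this spread may be technical.

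GBP and IRG proteins are large GTPases of cell-autonomous immunity, made in small amounts by resting macrophages and microglia and in large amounts after interferon. GBPs bind pathogen-containing vacuoles and cytosolic bacteria, and take part in the release of bacterial LPS to the caspase-11 inflammasome. Within the IRG family, Irgm1, Irgm2 and Igtp form the regulatory group, which sits on the cell's own membranes and keeps effector IRGs such as Iigp1 inactive there. Their genes are classic targets of the interferon pathways, which act on promoters through the interferon-stimulated response element (ISRE) and the gamma-activated site (GAS), and LPS reaches these pathways largely through secreted interferon beta.

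The promoters are shown because all 7 hold an ISRE-type sequence near the start of the gene. Each line below gives 60 bases, 5′ to 3′ on the gene's own strand, from the RefSeq promoters of build GRCm38.p6. All 7 genes matched by symbol. Capitals mark the ISRE-type match, spelled GAAANNGAAA on either strand.
Gbp2 (chr3:142620579-142620638, plus strand): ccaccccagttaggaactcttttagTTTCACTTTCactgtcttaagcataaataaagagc
Gbp3 (chr3:142559977-142560036, plus strand): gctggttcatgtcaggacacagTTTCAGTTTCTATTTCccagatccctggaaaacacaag
Gbp5 (chr3:142496744-142496803, plus strand): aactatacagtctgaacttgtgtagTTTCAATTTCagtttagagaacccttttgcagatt
Gbp7 (chr3:142530258-142530317, plus strand): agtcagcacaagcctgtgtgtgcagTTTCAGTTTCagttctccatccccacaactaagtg
Irgm1 (chr11:48871413-48871472, minus strand): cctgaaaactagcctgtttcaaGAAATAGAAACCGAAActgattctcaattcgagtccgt
Irgm2 (chr11:58214888-58214947, plus strand): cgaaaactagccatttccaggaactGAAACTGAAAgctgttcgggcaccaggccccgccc
Igtp (chr11:58199497-58199556, plus strand): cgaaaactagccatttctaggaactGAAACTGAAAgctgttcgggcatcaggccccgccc
The search covered 300 bases per promoter, 250 before the start and 50 after it. An ISRE-type match was present in 3.44% of the 32851 promoters of 27025 genes, and 2 or more matches in 0.225%. Gbp3 and Irgm1 had 2 matches that overlap each other, while the second annotated start of Gbp3 had none. Counted from the start base as 0, the Irgm1 matches lay from -30 to -15, the Igtp match from -34 to -25 and the Gbp3 matches from -45 to -30. The Gbp7, Gbp2 and Irgm2 matches began at -53, -59 and -64, and the Gbp5 match began farther away, at -165. A GAS-type sequence, TTCNNNGAA on either strand, is found in 8.3% of all promoters. It was present 2 times in Gbp5, 2 times in Gbp7, and 1 time each in Irgm2 and Igtp, with no match in the windows of Gbp2, Gbp3 and Irgm1. A kappaB-type sequence, GGGNNNNNCC on either strand, is found in 50.8% of promoters and was present in 5 of the 7, the exceptions being Gbp7 and Irgm1. Igtp and Irgm2, which are next to each other on chromosome 11, had promoters 91.1% identical over 271 aligned columns, and the sequences above differ little between them. The 4 GBP genes form a run on chromosome 3 in the order Gbp5, Gbp7, Gbp3, Gbp2b, Gbp2, with Gbp2b not analysed here. These matches describe the letters only, and binding was not measured.

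**Figure D1:**
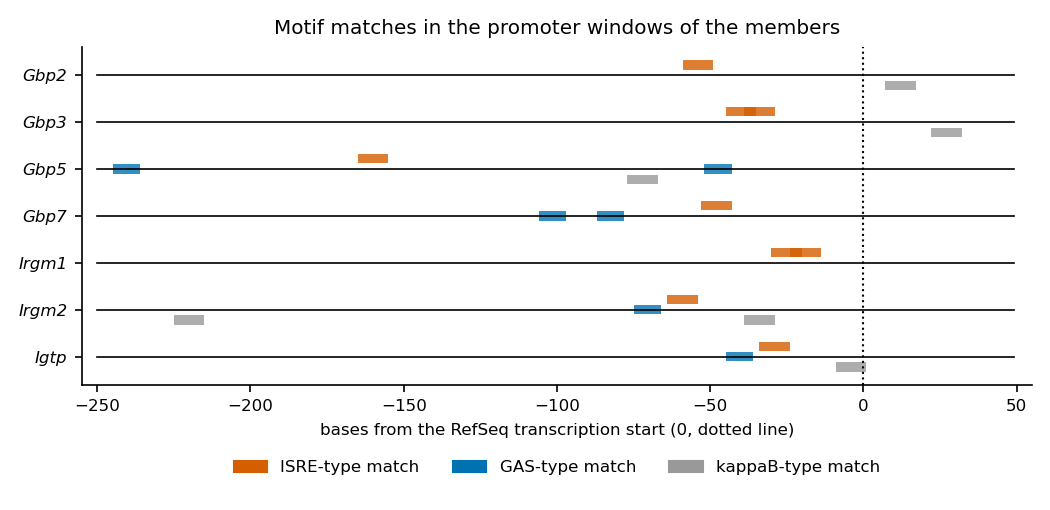
Positions of ISRE-type, GAS-type and kappaB-type matches in the 300-base promoters of the 7 genes, plotted as distance in bases from the annotated start (0). The ISRE-type matches lie between -64 and -15 in 6 genes and begin at -165 in Gbp5.

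Levels are in FPKM, fragments scaled to transcript length and library size, and can be compared between genes because they are per length. The listed genes had been selected by the authors for differing among these libraries, so shares of called genes are high in every comparison. Library correlations of log2(FPKM + 1), over the 5643 listed genes with a mean of at least 1 FPKM, were at least 0.998 within groups. They were at most 0.970 between groups, and no library stood apart. The listed FPKM summed to 195872 to 198075 in untreated libraries, 203515 to 205413 at 1 h and 223720 to 228207 at 12 h. Of 15 microglial and macrophage markers, 10 were in the table (among them Csf1r, Itgam, Trem2 and Spi1), and their summed level was 1762 to 1906 FPKM in untreated libraries, 1674 to 1708 FPKM at 1 h and 1577 to 1643 FPKM at 12 h. None of the 20 astrocyte, neuron, oligodendrocyte, lymphocyte and fibroblast markers had a row, and 1 of 4 endothelial markers did (Flt1, 15.2 to 21.8 FPKM). In these bulk libraries, fewer cells that transcribe a gene and less RNA per cell cannot be told apart.

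At 12 h of LPS, 6 of the 7 genes were higher than in untreated cells and higher than at 1 h, with every 12 h library above every other library. Among the 5643 listed genes with a mean of at least 1 FPKM, 41.9% had every 12 h library above every untreated one. Every 12 h library was above every 1 h one in 42.4%. As a ratio of 12 h to untreated means, the increase was largest for Gbp2, which was near 0 before LPS, and smallest for Irgm2 and Igtp. In FPKM, Irgm1 had the largest increase of the 7 genes. Gbp5 stayed within a few fragments of 0 in all groups. At 1 h the changes were small and in both directions.

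Among the GBPs, Gbp2 encodes a protein that coats pathogen vacuoles and bacteria. It measured 0.296, 0.157 and 0.154 FPKM in untreated libraries, 0.349, 0.275 and 0.370 FPKM at 1 h and 4.82, 4.31 and 6.75 FPKM at 12 h. Only the 12 h libraries stood clear of the others, and the third of them was the highest. The 12 h mean of 5.29 ± 1.29 FPKM was 26.1 times the untreated mean of 0.203 ± 0.0811 FPKM (SD, n = 3 each), and the ratios between single libraries ran from 14.5 to 43.7.

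Gbp3, a close relative of Gbp7 in sequence, measured 0.416, 0.637 and 0.540 FPKM in untreated libraries, 0.706, 0.845 and 0.780 FPKM at 1 h and 3.27, 3.01 and 4.15 FPKM at 12 h. The 3 groups did not overlap, with untreated lowest, 1 h between and 12 h highest. Gbp3 averaged 3.48 ± 0.598 FPKM at 12 h and 0.531 ± 0.111 FPKM in untreated cells, a ratio of 6.55.

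Gbp7, which has been linked in mouse macrophages to antimicrobial oxidase and autophagy functions, measured 0.849, 0.868 and 0.842 FPKM in untreated libraries. At 1 h it measured 0.631, 0.607 and 0.820 FPKM, and at 12 h 3.32, 3.10 and 3.08 FPKM. All 1 h libraries were below the untreated ones, and the 12 h libraries were far above both. The 12 h mean of 3.17 ± 0.133 FPKM was 3.71 times the untreated mean of 0.853 ± 0.0137 FPKM.

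Gbp5, known for promoting NLRP3 inflammasome assembly, was listed at 0 in all 3 untreated libraries. It was listed at 0.0300, 0 and 0.0478 FPKM at 1 h and at 0.0459, 0.0151 and 0.0322 FPKM at 12 h. The values of the 2 LPS groups overlap. They are near whole multiples (1 to 3.17) of the smallest, 0.0151 FPKM, so each may rest on a few fragments. Gbp5 fell below the level filter, and no fold is given against a group listed at 0. Tested without the filter, its 12 h minus untreated difference was 0.04 on the log2(FPKM + 1) scale (limma, adjusted p = 0.101).

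Of the regulatory IRGs, Irgm1 encodes a protein of the Golgi, mitochondria and lysosomes that is needed for resistance of mice to mycobacteria and for restraint of interferon responses. It was the most abundant of the 7 in all 9 libraries. It measured 7.65, 6.67 and 6.997 FPKM in untreated libraries, 5.36, 6.43 and 7.03 FPKM at 1 h and 25.8, 25.03 and 23.6 FPKM at 12 h. The untreated and 1 h libraries overlapped, and the 12 h libraries formed a tight group above both. The 12 h mean of 24.8 ± 1.14 FPKM was 3.49 times the untreated mean of 7.11 ± 0.497 FPKM.

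Igtp, an endoplasmic reticulum and lipid droplet GTPase needed for resistance of mice to Toxoplasma, measured 3.99, 3.45 and 3.75 FPKM in untreated libraries, 3.50, 2.72 and 3.41 FPKM at 1 h and 7.74, 7.67 and 8.32 FPKM at 12 h. Its untreated and 1 h ranges overlapped slightly, and its 12 h libraries were all higher. Igtp averaged 7.91 ± 0.356 FPKM at 12 h and 3.73 ± 0.268 FPKM in untreated cells, a ratio of 2.12.

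Irgm2, known in mouse macrophages to restrain the caspase-11 response to LPS, measured 2.77, 3.44 and 2.55 FPKM in untreated libraries. It measured 1.89, 1.64 and 2.55 FPKM at 1 h and 5.34, 5.59 and 5.98 FPKM at 12 h. The highest 1 h library lay just under the lowest untreated library, and the 12 h libraries lay above all others. The 12 h mean of 5.64 ± 0.324 FPKM was 1.93 times the untreated mean of 2.92 ± 0.461 FPKM.

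**Figure D2:**
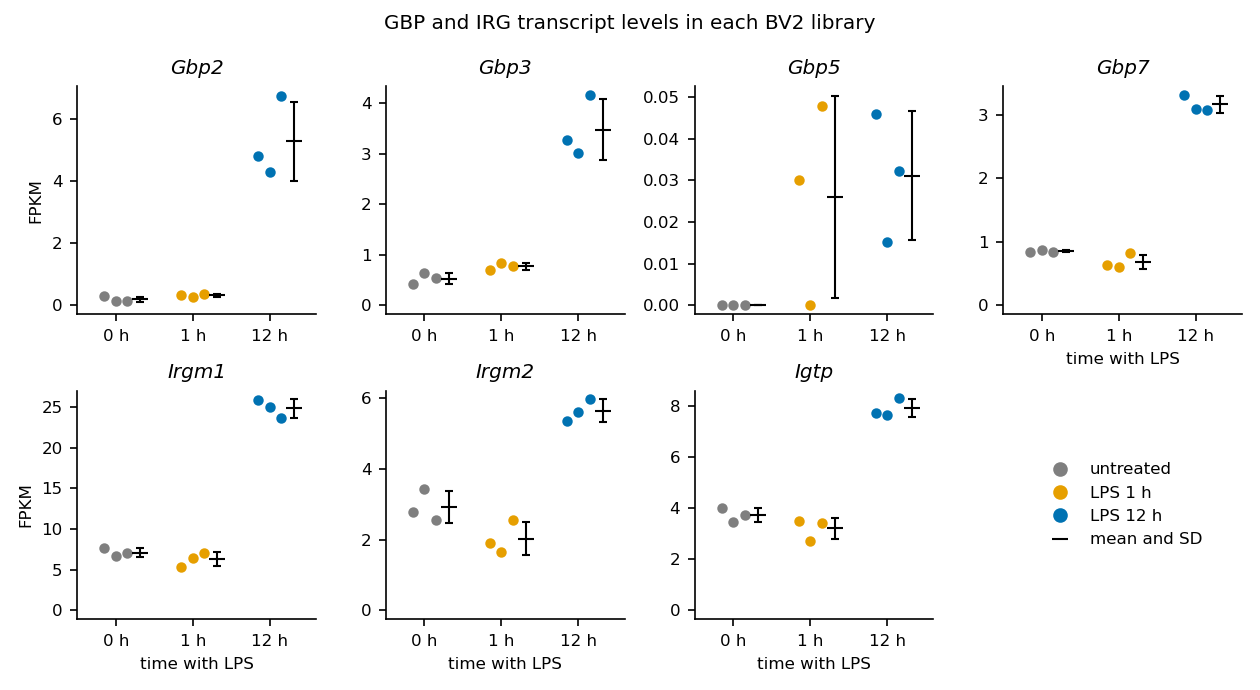
FPKM of each of the 7 genes in the 9 libraries (untreated, LPS 1 h, LPS 12 h). Points are libraries and bars give the mean and SD, n = 3 each; the 12 h points lie above all others in each gene except Gbp5, whose values stay under 0.05 FPKM.

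Differences were tested with limma on log2(FPKM + 1), with Benjamini-Hochberg adjustment over the 5643 genes whose mean was at least 1 FPKM, and called at an adjusted p under 0.05. The 6 genes tested were the 7 without Gbp5. Of these, Gbp2, Gbp3 and Gbp7 passed the filter only through their 12 h values, so neither a count nor a median over the 6 is support for an increase. The untreated means of the 3 IRGs alone exceed the filter. The scale understates the change of low genes: the log2 of the ratios above is larger.

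For 12 h against untreated, all 6 were called higher, where 41.1% of all tested genes were called higher, and 41.9% had every 12 h library above every untreated one. The median log2 difference of the 3 IRGs was 0.91, beside 0.03 over all tested genes. Gbp2 rose by 2.37 with SE 0.109 (adjusted p = 6.64e-11) and Gbp3 by 1.54 with SE 0.0873 (adjusted p = 6.38e-10). Gbp7 rose by 1.17 with SE 0.0629 (adjusted p = 3.75e-10). Irgm1 rose by 1.67 with SE 0.0724 (adjusted p = 3.45e-11), ahead of its relatives Igtp at 0.91 with SE 0.0704 (adjusted p = 1.95e-08) and Irgm2 at 0.76 with SE 0.0989 (adjusted p = 4.82e-06). The pseudocount sets the size for the GBPs: with 0.1 in place of 1, the Gbp2 difference was 4.16, Gbp3 2.51 and Gbp7 1.78, while Irgm1 moved only to 1.79.

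For 12 h against 1 h, which shares its 12 h libraries with the comparison before, all 6 were again called higher, where 41.9% of all tested genes were. The median of the 3 IRGs was 1.14, beside 0.01 over all tested genes. The 12 h mean was 16.0 times the 1 h mean for Gbp2, 4.47 times for Gbp3, 4.61 times for Gbp7, 3.96 times for Irgm1, 2.78 times for Irgm2 and 2.46 times for Igtp. On the log2(FPKM + 1) scale Gbp2 rose by 2.22 (limma, adjusted p = 1.51e-10), Irgm1 by 1.83 (adjusted p = 1.47e-11), Irgm2 by 1.14 (adjusted p = 8.23e-08) and Igtp by 1.09 (adjusted p = 3.47e-09). Gbp3 rose by 1.33 and Gbp7 by 1.31.

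For 1 h against untreated, 1 of the 6 was called higher, where 24.1% of all tested genes were called higher, and 2 were called lower, where 34.9% were. Irgm2 averaged 2.03 ± 0.469 FPKM at 1 h and 2.92 ± 0.461 FPKM in untreated cells, a log2 difference of -0.38 with SE 0.0989 (limma, adjusted p = 0.00467). This call was lost under quantile normalization (-0.23, adjusted p = 0.0739, in a range of 0.000373 to 0.0739 over the alternatives). Igtp (-0.17, adjusted p = 0.0483) fell and Gbp3 (0.22, adjusted p = 0.0451) rose close to the threshold, and were called in 8 and 10 of the 19 alternatives, with adjusted p from 0.0219 to 0.387 and from 0.0135 to 0.175. Without 1 h library 2, the lowest for Igtp, the Igtp difference was -0.09 (adjusted p = 0.253). Its call was also lost without untreated library 1 or 3, or without 12 h library 1 or 2, and that of Gbp3 was lost without untreated library 1 or 3, any of the 1 h libraries, or 12 h library 1. Irgm1 (-0.16, adjusted p = 0.0687), Gbp7 (-0.14, adjusted p = 0.0726) and Gbp2 (0.15, adjusted p = 0.257) did not pass. Without 1 h library 3, which was the highest of its group for both, Irgm1 (-0.24, adjusted p = 0.0120) and Gbp7 (-0.19, adjusted p = 0.0176) were called lower. Without 1 h library 1 the Irgm1 difference was -0.07 (adjusted p = 0.358), and without untreated library 2 it was called at -0.20 (adjusted p = 0.0499). Over all alternatives Irgm1 was called lower in 2 of 20, with adjusted p from 0.0120 to 0.358, and Gbp7 in 5 of 19, with adjusted p from 0.0176 to 0.287. Gbp2 was called higher with a pseudocount of 0.1 (0.54, adjusted p = 0.0349, in a range up to 0.995 over the alternatives), and its sign turned under quantile normalization (-0.05). The median of the 6 was -0.15, beside -0.03 over all tested genes.

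**Figure D3:**
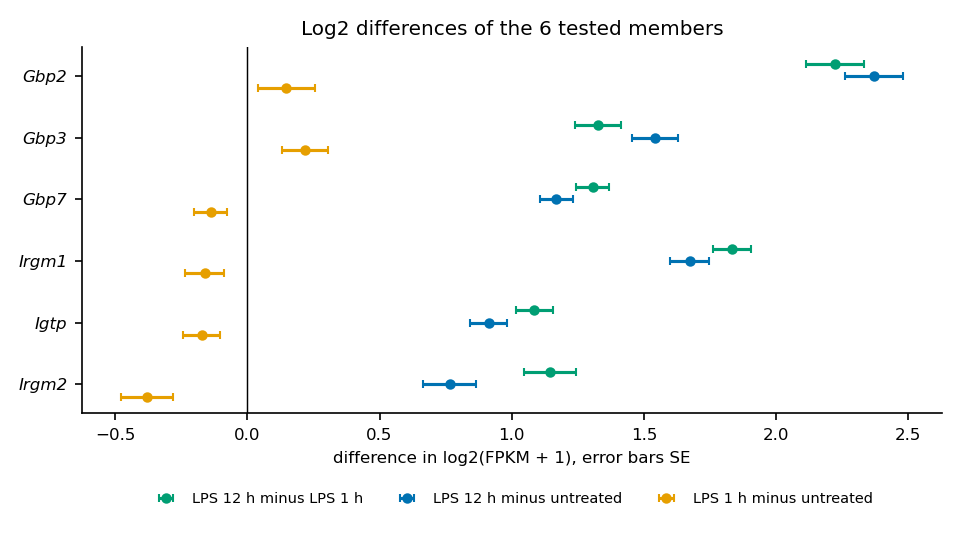
Log2(FPKM + 1) differences of the 6 tested genes from limma, as points with bars of 1 SE, for LPS 1 h and LPS 12 h against untreated and LPS 12 h against LPS 1 h. The 1 h differences run from -0.38 to 0.22, while those of 12 h against untreated run from 0.76 in Irgm2 to 2.37 in Gbp2.

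Summed over the 7 genes, levels were 14.8 to 16.0 FPKM in untreated libraries, 12.5 to 15.005 FPKM at 1 h and 48.7 to 51.9 FPKM at 12 h. The 4 GBP genes made up 9.77 to 10.9% of that sum in untreated libraries, 13.5 to 13.8% at 1 h and 21.4 to 27.0% at 12 h. Gbp2 alone made up 1.03 to 1.85%, 2.19 to 2.80% and 8.84 to 13% at those times. Irgm1 held 43.0 to 51.4% throughout, with overlapping ranges in the 3 groups.

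In untreated cells the order of levels was Irgm1, Igtp, Irgm2, Gbp7, Gbp3, Gbp2 and Gbp5, and no neighbours in that order overlapped, although the lowest Igtp library and the highest Irgm2 library nearly met. At 1 h Gbp3 and Gbp7 overlapped. At 12 h Gbp2 had moved up to the fourth place, where it overlapped Irgm2 (5.29 against 5.64 FPKM), and Gbp3 and Gbp7 overlapped again.

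Ratios between neighbouring or paired genes were compared within libraries, in 4 pairs with an exact two-sided permutation test. Its smallest possible p with 3 against 3 libraries is 0.1. All log2 ratios here are of FPKM + 1, which pulls them toward 0 where levels are low. Untreated Gbp2 and Gbp3, with means of 0.203 and 0.531 FPKM, are such a case, so the changes in ratio are understated there. The log2 ratio of Gbp2 to Gbp3 was 0.48 ± 0.0965 at 12 h and -0.35 ± 0.195 in untreated libraries, a difference of 0.83 (exact p = 0.1, adjusted over the 4 pairs 0.133). That of Irgm1 to Igtp was 1.54 ± 0.118 at 12 h and 0.78 ± 0.0225 in untreated libraries, a difference of 0.76 (exact p = 0.1). Gbp3 over Gbp7 differed by 0.37 (exact p = 0.1), and in these 3 pairs the groups did not overlap. The tandem neighbours Igtp and Irgm2 had log2 ratios of 0.42 ± 0.0357 at 12 h and 0.28 ± 0.234 in untreated libraries, with overlapping groups (difference 0.15, exact p = 0.5).

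Near-identical sequence limits how well some of these genes can be told apart, depending on how the authors treated reads that match several places. Of the 50-base stretches of the Igtp transcript, 12.3% are also found in Irgm2, and 5.84% of those of Irgm2 are in Igtp. Gbp7 shares 10.6% with the predicted gene Gm43802 and 2.26% with Gbp3, Gbp3 shares 4.79% with Gbp7, and Gbp2 shares 2.07% with Gbp2b. Irgm1 shares none. Levels were also low for counting: from the smallest steps in FPKM of 11 weakly expressed genes, depth was put roughly at 24900000 fragments per library (quartiles 20000000 and 29300000). Gbp2 would then rest on about 330 fragments per library at 12 h and 13 in untreated cells, and Irgm1 on about 2400 at 12 h and 680 in untreated cells.

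The other genes of the interferon pathways and of GBP and IRG function come from 6 lists. Their counts are to be read against all tested genes, of which 24.1% were called higher and 34.9% lower at 1 h, and 41.1% higher and 40.6% lower at 12 h, each against untreated. Of 19 receptor and JAK-STAT genes, 12 were tested, of which 9 rose and 3 fell at 12 h against untreated, with a median log2 difference of 0.61. At 1 h against untreated 1 rose and 3 fell, with a median of 0.00. Stat2, a transcription factor of the type I interferon pathway, averaged 2.71, 1.29 and 4.43 FPKM in untreated, 1 h and 12 h cells, and fell by 0.70 at 1 h (limma, adjusted p = 3.9e-07) before it was higher by 0.55 at 12 h. Usp18, which restrains type I interferon receptor signalling, averaged 10.5, 9.19 and 47.6 FPKM and rose by 2.08 at 12 h. Socs3, an inhibitor of JAK-STAT signalling, rose at both times (1.03 at 1 h and 2.42 at 12 h). Its relative Socs1 had a difference of 0.03 at 1 h, which did not pass, and rose by 1.02 at 12 h. Ifngr1, the ligand-binding chain of the interferon gamma receptor, fell by 0.63 at 12 h, to 10.1 FPKM against 16.3 FPKM in untreated cells.

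Of 18 interferon regulatory factors and partners, 9 were tested, of which 4 rose and 3 fell at 1 h against untreated, and 5 rose and 2 fell at 12 h against untreated. The share that fell at 1 h was near that of all tested genes (34.9%), and 41.1% of all tested genes rose at 12 h. Irf7, the amplifier of type I interferon responses, averaged 9.67, 9.81 and 75.9 FPKM in untreated, 1 h and 12 h cells, and rose by 2.85 at 12 h after no called change at 1 h (0.02, adjusted p = 0.851). Irf1, an early activator of GBP and IRG genes in mouse cells, averaged 6.02, 15.7 and 6.44 FPKM. It rose by 1.25 at 1 h (limma, adjusted p = 9.7e-11) and its 12 h difference from untreated was 0.09 (adjusted p = 0.153, called under quantile normalization at 0.15). Ikbke, the kinase IKK-epsilon, rose by 0.87 at 1 h and 1.42 at 12 h, and Ticam1, the TLR4 adaptor TRIF, by 0.81 and 0.63. Irf2bp2, a corepressor of IRF2, fell by 0.74 at 1 h and 0.75 at 12 h.

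Among inflammasome and pyroptosis genes, 7 of 15 were tested, of which 3 rose and 3 fell at 1 h (24.1% and 34.9% of all tested genes) and 5 rose and 1 fell at 12 h (41.1% and 40.6% of all tested genes), each against untreated. Casp4, the mouse gene for caspase-11, averaged 2.00, 3.55 and 12.2 FPKM in untreated, 1 h and 12 h cells and rose at both times (0.59, adjusted p = 0.000419, and 2.14, limma adjusted p = 2.39e-10). Nlrp3, the inflammasome sensor, had its peak at 1 h, with means of 11.7, 112 and 25.3 FPKM. Il1b averaged 0.116, 6.96 and 7.95 FPKM, and rose by 2.83 at 1 h and 2.98 at 12 h. Nek7, an NLRP3 partner, fell by 0.57 at 12 h.

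The ATG8 conjugation and ubiquitin list, which also holds autophagy receptors, had 16 of 21 genes tested. Of these, 6 rose and 5 fell at 12 h against untreated. Their median of 0.07 turned to -0.01 under quantile normalization, where 6 rose and 7 fell. These shares are near or below those of all tested genes, 41.1% higher and 40.6% lower. Sqstm1, the ubiquitin-binding autophagy receptor p62, averaged 118, 245 and 316 FPKM in untreated, 1 h and 12 h cells and rose by 1.04 at 1 h and 1.41 at 12 h. Rnf213, a giant ubiquitin ligase that coats bacteria, rose by 1.35 at 12 h, and Calcoco1, an autophagy receptor of the same family as NDP52, fell by 1.04. The mouse Gbp2 and Gbp5 proteins end in a prenylation motif, which anchors them to membranes. Of 11 prenylation enzymes, 7 were tested, of which 6 rose and 1 fell at 12 h, beside 41.1% and 40.6% of all tested genes, with small sizes (median 0.22, beside 0.03 over all tested genes). With so few genes this is a count and no result about prenylation. Fdps, which makes farnesyl diphosphate, rose by 0.35, and Pggt1b, the beta subunit of type I geranylgeranyl transferase, fell by 0.33.

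Of 30 further GBP, IRG and related GTPase genes, 8 had a row and 4 were tested, of which 1 rose and 2 fell at 12 h against untreated, beside 41.1% and 40.6% of all tested genes. Ifi47 (Irgd), an IRG gene, averaged 3.38, 2.66 and 4.99 FPKM in untreated, 1 h and 12 h cells. Like Irgm2 and Igtp, it was called lower at 1 h (-0.26, limma adjusted p = 0.0189, lost under quantile normalization at -0.12) and higher at 12 h (0.46, adjusted p = 0.000194). The predicted relative 9930111J21Rik1 fell at both times (-0.57 and -0.54). The atlastins, GTPases of the endoplasmic reticulum that belong to the same superfamily as GBPs, did otherwise: Atl3 fell by 0.42 at 12 h, and Atl2 rose by 0.35 at 1 h with -0.04 at 12 h (adjusted p = 0.35).

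**Figure D4:**
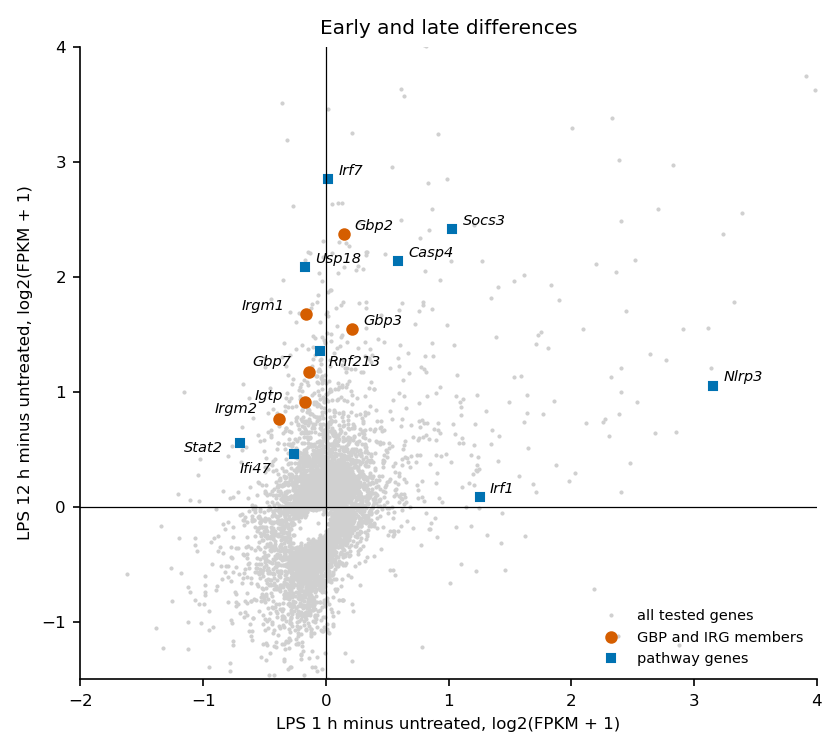
Log2(FPKM + 1) difference at 1 h against untreated (horizontal) and at 12 h against untreated (vertical) for the tested genes, with the 6 GTPase genes and 9 pathway genes labelled; both axes share the untreated libraries, and 53 of the 5643 tested genes lie outside the axes. The GTPase genes lie from -0.38 to 0.22 on the horizontal axis and from 0.76 to 2.37 on the vertical axis. Rnf213 lies at -0.05 and 1.35 on these axes, and Irf1 at 1.25 and 0.09.

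Among 4364 other tested genes with a symbol and a mean of at least 5 FPKM, the profiles most like the median profile of the 6 were ranked by root mean square distance over the 9 libraries, on the log2(FPKM + 1) scale less the untreated mean. Among the nearest 6 were Esd (0.0546), Plxna1 (0.0570), Rnf213 (0.0616), Ube2l6 (0.0677) and Parp12 (0.0758). Their 12 h differences were 1.29 for Esd, 1.39 for Plxna1, 1.35 for Rnf213, 1.34 for Ube2l6 and 1.33 for Parp12. Distances of the GTPase genes from their own median ran from 0.102 for Gbp7 and 0.218 for Irgm1 to 0.629 for Gbp2. The other genes were taken as the nearest of 4364, so their smaller distances follow from that choice. The median also includes Gbp2, Gbp3 and Gbp7, which passed the filter only through their 12 h values. Among pairs of the 6, Gbp7 and Igtp (0.171) and Irgm2 and Igtp (0.200) were closest, and Gbp2 and Irgm2 (0.990) were farthest apart.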

How the data were processed

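RNA from BV2 cells was extracted with TRIzol and sequenced from TruSeq Stranded mRNA libraries, per the labels' protocols. Tools named in the submitters' processing notes, with no role or version, are Trimmomatic, HISAT2, Cufflinks, HTSeq and DESeq. The notes give the human build GRCh38 for these mouse genes, which leaves the true build unknown. The authors deposited FPKM per gene for the 9 libraries. The p-value and q-value columns, and the score that ranks genes, which the authors deposited beside them, were not used to call genes. No listed gene has a q-value above 0.0999, a sign that the authors kept genes for differing among these libraries.

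FPKM was compared as log2(FPKM + 1) in limma 3.58.1 (R 4.3.3), with 1 mean per group over all 9 libraries and a spread that follows the level. Genes with a mean of at least 1 FPKM were tested (5643, with 819 left out), and p-values were adjusted by Benjamini-Hochberg over them. The adjusted p-values give no false discovery rate over the transcriptome, because the genes were preselected. The procedure was also run on simulated data, drawn as independent normal values per gene and library. That run held no preselection of genes for differing and no steps from low counts, so it does not bear on these limits. FPKM files carry no depth, so it was estimated only roughly. Promoters were searched, and aligned with biopython 1.88, in Python 3.11.15. The 50-base stretches came from GENCODE transcripts. Of 6462 gene identifiers, 6449 matched the mouse gene table.

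The genes and lists were chosen with earlier results of these data known. Named were all genes of the set with a row, up to 4 genes per list and comparison by size of the difference, and the 6 most similar profiles, less 1 gene that is not reported here. Same-numbered libraries did not deviate together (residual correlations from -0.0666 to 0.128), so replicate numbers were not taken to pair libraries. Alternatives were other pseudocounts, filters, scalings, a replicate block, array weights, a spread without trend, fits of 6 libraries, adjustment over the genes behind the deposited ranks, and leaving out each library.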

Additional observations from a re-analysis of the deposited data

Results flagged for a closer look

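Irgm2 and Igtp were called lower at 1 h than in untreated cells and higher at 12 h than in untreated cells. The difference between the effects, which is the 12 h minus 1 h contrast, was 1.14 for Irgm2 (limma, adjusted p = 8.23e-08) and 1.09 for Igtp (adjusted p = 3.47e-09). Every 12 h library was above every 1 h library in both, as in 42.4% of all tested genes. Both genes were picked for being called in each comparison, 12 h against 1 h among them, so these p-values are no separate support. The 1 h decreases are small (-0.38 and -0.17), and both lost their call under quantile normalization. Over the 19 alternatives, the 1 h decrease was called in 18 for Irgm2 and in 8 for Igtp. The 2 genes share sequence with each other, and the part of that in their like behaviour was not tested.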

How the results depend on the processing

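The calls for 12 h against untreated and 12 h against 1 h held for each tested gene under every alternative in which it was tested, and left-out libraries moved the 12 h difference from untreated of Gbp2 over 2.21 to 2.48 and of Gbp3 over 1.44 to 1.62. With a filter at a mean of 5 FPKM only Irgm1 was still tested, so the count of 6 higher became 1 in both comparisons. At 1 h the count of 1 gene called higher became 2 with a pseudocount of 0.1 (Gbp2 joined Gbp3), and 0 without a filter, with the filter at 5, under quantile normalization, and when p-values were adjusted over 21878 genes (the number behind the deposited ranks), an alternative chosen after seeing the data. Leaving out single libraries gave 0 to 1. The count of 2 called lower became 3 with a pseudocount of 0.1 and with array weights (Gbp7 in both), 0 with the filter at 5 and under quantile normalization, and 1 under median-of-ratios scaling, with only the 6 libraries compared, and with the adjustment over 21878 genes. Leaving out single libraries gave 1 to 4, the 4 without 1 h library 3. The causes were not tested. Scaling moved the median of all genes by at most 0.05. With the replicate number as a block, 3292, 4591 and 4807 genes were called at 1 h against untreated, 12 h against untreated and 12 h against 1 h, where 3330, 4611 and 4823 were called without it, and the counts for the GTPase genes did not change. Untreated levels of Gbp2 and all levels of Gbp5 are limited by depth.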

Other observations

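Relatives below the level filter were looked at after their values were seen and were not tested. Gbp6 averaged 0.00349, 0.0137 and 0.112 FPKM in untreated, 1 h and 12 h cells, and Gbp9 averaged 0.0159, 0.0122 and 0.0582 FPKM. Gvin1, a very large interferon-induced GTPase, averaged 0.333, 0.385 and 1.13 FPKM. Gm12250 (Irgb10), an effector IRG that lies next to Igtp, averaged 0.139, 0.102 and 0.341 FPKM. Gbp6 did not exceed 0.147 FPKM and Gbp9 did not exceed 0.103 FPKM in any library, so their values may rest on few fragments. Ifnb1, the interferon beta gene, averaged 0.0240, 0.304 and 0.212 FPKM. Its libraries measured 0.547, 0.146 and 0.220 FPKM at 1 h and 0.139, 0.275 and 0.221 FPKM at 12 h. These groups overlapped, and the higher 1 h mean rests on 1 library, so the 2 times cannot be ranked.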
